A study of Mus musculus with 8 samples.

Results

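The regions described here were the H3K9me2 and H3K9me3 regions of 8 stretches of the mouse genome that hold arrays of duplicated genes: the defensin array of chromosome 8 (19.0 to 22.6 Mb of build mm10), 2 Speer stretches of chromosome 5 (14 to 16 and 25 to 27 Mb), the array around D5Ertd577e on chromosome 5 (93.0 to 96.0 Mb), the Skint and Pramel arrays of chromosome 4 (111.8 to 113.5 and 143.0 to 144.5 Mb), the Ear array of chromosome 14 (41.5 to 45.0 Mb) and the Sp100 family stretch of chromosome 1 (85.0 to 86.0 Mb). A region belonged to an array when its midpoint lay in the stretch, and no measured value enters this rule. This gave 395 of 16498 regions: 109 of 1983 for H3K9me2 and 286 of 14515 for H3K9me3. The chromatin came from mouse embryonic fibroblasts (MEFs) immortalized with SV40 T antigen, on a C57bl6 background. The mid-gestation embryos carried both copies of HAT1 (HAT1+/+, here WT) or none (HAT1-/-, here KO). The labels name 2 embryos of each genotype, and each of the 2 marks was profiled in 2 KO and 2 WT libraries. Every culture was transfected with a T antigen plasmid and split repeatedly, WT and KO alike, so each library stands for 1 immortalized population, and human myoblasts were added to every sample as a spike-in. The labels do not say whether libraries of equal number were handled together. Library totals ran from 4198682 to 8421762 reads, and levels are given as RPM, the reads of a region scaled to that total. Where 4 values stand in a row, they are KO libraries 1 and 2 followed by WT libraries 1 and 2.

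H3K9me2 and H3K9me3 are methylation states of lysine 9 of histone H3 that mark silent chromatin. H3K9me3 is laid down at repeats and at clusters of duplicated genes, and H3K9me2 covers broad silent domains, many of them at the nuclear lamina. HAT1 acetylates newly made histone H4 before it is assembled into chromatin. Several of the arrays hold genes known from other tissues: alpha- and beta-defensins are antimicrobial peptides of the gut and of epithelia, Speer genes are testis-specific, Skint1 is needed for a class of skin T cells, and Pramel and Oog genes are expressed in germ cells and early embryos. Ear genes encode ribonucleases of eosinophils, and Sp100, Sp110 and Sp140 encode nuclear body proteins. The genes around D5Ertd577e carry no family name in the GENCODE M21 annotation, and most genes of the chromosome 14 stretch are predicted genes, and 5 genes there bear an Ear or Ang symbol while 186 do not.

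The sequences below, from the GRCm38.p6 reference on the forward strand, show regions on which the comparisons turn. Capitals mark bases covered by at least 1 word of 31 bases that occurs once in the reference, and lower case marks bases found only in repeated words. The AY761185 and AA792892 regions had no read in WT library 2, the Defa21 flank had most of its reads there, and the Sp140 intron was the highest H3K9me2 region of the Sp100 stretch. For regions longer than 300 bases, 300 bases are printed.
AY761185 flank, chr8:20946981-20947280: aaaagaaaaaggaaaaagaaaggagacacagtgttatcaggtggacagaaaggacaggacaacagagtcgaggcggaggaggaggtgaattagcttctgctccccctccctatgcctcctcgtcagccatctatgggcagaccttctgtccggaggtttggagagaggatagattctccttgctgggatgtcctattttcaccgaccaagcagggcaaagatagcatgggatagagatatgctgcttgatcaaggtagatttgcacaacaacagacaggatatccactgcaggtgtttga
Defa21 flank, chr8:21000182-21000421: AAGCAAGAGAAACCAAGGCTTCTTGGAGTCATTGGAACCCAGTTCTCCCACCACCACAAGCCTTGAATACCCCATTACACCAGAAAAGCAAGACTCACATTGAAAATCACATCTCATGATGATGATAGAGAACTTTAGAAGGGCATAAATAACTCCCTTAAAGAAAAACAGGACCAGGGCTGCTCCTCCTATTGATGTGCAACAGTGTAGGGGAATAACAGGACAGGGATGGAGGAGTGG
AA792892 intron, chr5:94347395-94347694: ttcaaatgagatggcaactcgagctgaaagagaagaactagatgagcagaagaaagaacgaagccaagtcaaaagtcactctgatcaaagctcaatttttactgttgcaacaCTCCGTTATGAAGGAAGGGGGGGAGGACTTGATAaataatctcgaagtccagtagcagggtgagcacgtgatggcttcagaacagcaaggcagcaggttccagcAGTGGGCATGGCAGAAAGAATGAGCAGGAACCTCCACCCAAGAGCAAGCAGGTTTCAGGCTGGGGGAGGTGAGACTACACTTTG
Sp140 intron, chr1:85624985-85625284: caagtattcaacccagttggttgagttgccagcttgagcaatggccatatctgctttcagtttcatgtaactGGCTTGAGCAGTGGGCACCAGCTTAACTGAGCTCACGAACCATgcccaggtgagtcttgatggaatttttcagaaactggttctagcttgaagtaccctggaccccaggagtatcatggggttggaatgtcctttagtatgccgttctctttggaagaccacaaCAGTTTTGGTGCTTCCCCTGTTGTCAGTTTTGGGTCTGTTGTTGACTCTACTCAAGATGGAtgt
The Defa21 sequence was wholly in capitals, whereas none of the 300 bases of the AY761185 flank was. The AA792892 and Sp140 sequences lay between, with 118 and 104 of 300 bases in capitals.

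Most array regions were of this repeated kind. The median share of 31-base words found once was 8.07% for H3K9me2 and 14.7% for H3K9me3, against 75.9% and 72.2% over all regions of each mark. By array, the H3K9me3 median was 8.75% for the defensin array, 10.8% for Sp100, 12.4% for Ear and 14.4% for D5Ertd577e. Skint (79.2%) and Pramel (65.4%) lay near the median of all regions. A read from a repeated word can be placed at any of its copies, and no input library was used here, so the number of copies of an array and the mark on each copy cannot be told apart.

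**Figure D1:**
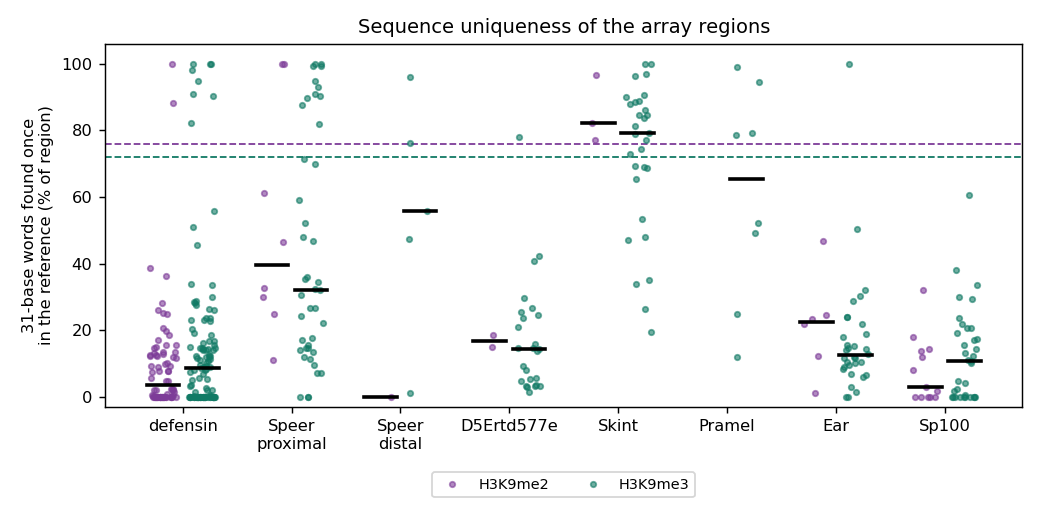
Each point is a region, and its height is the percentage of its 31-base words that occur once in the reference, black bars are medians of the array, and dashed lines are the medians of all regions of the mark (75.9% for H3K9me2 and 72.2% for H3K9me3). Skint regions sit around those lines, and most defensin, D5Ertd577e, Ear and Sp100 regions far below them.

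Before genotypes are compared, 1 library has to be set apart. Pooled over the array regions, WT library 2 differed from the other 3 libraries, which resembled each other. The log2 RPM ratio of WT library 1 to KO library 1 had a standard deviation of 0.56 over the 109 H3K9me2 regions, and that of KO library 2 to KO library 1 was 0.75. Against WT library 2 the spread was 1.74 for KO library 1, 1.76 for KO library 2 and 1.69 for WT library 1. For H3K9me3 the values without WT library 2 were 0.78 to 0.93, and those with it 1.68 to 1.87. By array, the H3K9me3 spread between the WT libraries was 1.99 (defensin) and 1.98 (D5Ertd577e), beside 0.59 and 1.03 between the KO libraries. In Ear and Skint it was 0.92 and 0.91, no wider than the 0.95 and 0.94 between the KO libraries. The proximal Speer stretch lay between, with 1.17 and 0.86. In regions outside the arrays the gap was narrower, with 1.06 to 1.19 without WT library 2 and 1.22 to 1.29 with it for H3K9me2, and 1.03 to 1.14 and 1.17 to 1.21 for H3K9me3. WT library 2 exceeded WT library 1 more than 2-fold in 53 of 109 H3K9me2 and 86 of 286 H3K9me3 array regions (27.0% and 20.0% of all regions), and fell below a ratio of 0.5 in 10 and 50 (10.6% and 13.5% of all regions). KO library 2 exceeded KO library 1 more than 2-fold in 4 of 109 and 31 of 286 array regions (20.7% and 17.7% of all regions), and fell below a ratio of 0.5 in 12 and 19 (13.1% and 15.2% of all regions). No array region had 0 reads in a KO library alone while the other 3 libraries held at least 30 reads (0.151% of all H3K9me2 regions for either KO library, and 0.138% and 0.0551% of all H3K9me3 regions for KO libraries 1 and 2). In WT library 1 alone this held for 0 H3K9me2 and 1 H3K9me3 array region (0.555% and 0.985% of all), and in WT library 2 alone for 6 and 21 (1.06% and 1.49% of all). The values of both WT libraries are therefore given on their own beside each genotype difference.

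The scaling also has to be stated before genotypes are compared, since the bulk of regions shifted with it. Per library total, the summed level of all regions in KO was 1.58 times WT for H3K9me2 and 1.57 times WT for H3K9me3, and the median region was higher by 0.77 and 1.01 on the log2 scale. TMM scaling, which centres the bulk of regions, brought these medians to 0.12 and 0.05, and the sums to 1.01 and 0.778 times WT. A ratio of an array per library total is therefore to be read beside 1.58 or 1.57, and one under TMM beside 1.01 or 0.778. In the array regions both KO libraries lay above both WT libraries per library total in 37 of 109 for H3K9me2 and 144 of 286 for H3K9me3 (45.5% and 57.6% of all regions), and below in 1 and 6 (3.98% and 2.65% of all). Under TMM they lay above in 17 and 34 (20.0% and 17.3% of all) and below in 26 and 74 (16.7% and 19.1% of all).

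The median KO to WT difference of array regions lay below that of all regions under both scalings. Relative to all regions, it lay for H3K9me2 at -0.54 on the log2 scale with TMM and at -0.61 per library total, and for H3K9me3 at -0.36 and -0.32. The genotypes were not separated for H3K9me2. The median TMM-scaled reads of its array regions were 32.2 and 30.7 in KO, 29.7 in WT library 1 and 47.0 in WT library 2. The defensin array and WT library 2 carried much of the difference from all regions. With TMM the median defensin region lay at -0.67 and -0.63 relative to all regions in H3K9me2 and H3K9me3, at -0.21 and -0.11 without WT library 2, and at -1.13 and -1.12 without WT library 1. The median D5Ertd577e H3K9me3 region lay at 0.05, at -0.73 without WT library 2 and at 3.77 without WT library 1. The Sp100 median lay at 0.18 for H3K9me2, but at 0.02 without WT library 2, and for H3K9me3 at -0.39, with -0.33 without WT library 1 and -0.56 without WT library 2. The H3K9me3 median of Skint lay at -0.32 (-0.25 and -0.39 without WT libraries 1 and 2) and that of Ear at 0.32 (0.28 and 0.21). The 8 H3K9me2 regions of the proximal Speer stretch had a median of -0.54 (-0.82 and -0.45 without WT libraries 1 and 2). Against all regions with under 50% unique words, array regions of that kind lay at -0.44 and -0.15 for H3K9me2 and H3K9me3. Against all regions with at least 50% unique words, the 8 and 61 array regions of that kind lay at -0.03 and -0.08, but the interval between the defensin genes described next held 0 and 1 of them, so array and repeated sequence cannot be told apart.

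In the defensin array no region of either mark lay on a defensin gene, and most lay in an interval without one. The regions covered 27.2 kb (H3K9me2) and 39.5 kb (H3K9me3) of the stretch in sum, and the overlap with genes that this alone would give was not worked out. None of the 39 Defa and 22 Defb genes and pseudogenes of the annotation was overlapped by a region of either mark, and only Defa-ps5, Defb34 and Defb7 lay within 5 kb of one, all for H3K9me3. The longest interval without a defensin gene, 1395 kb from Defb7 to Defb33 (chr8:19497776-20892668), made up 38.7% of the stretch. It held 72 of the 76 H3K9me2 regions (94.7%) and 90 of the 110 H3K9me3 regions (81.8%). This interval was chosen after the positions were seen. Its most often covered gene was the lincRNA Gm26804, 128 kb long, with 15 H3K9me2 and 19 H3K9me3 regions. The transcribed pseudogenes 2610005L07Rik and 6820431F20Rik and the predicted coding genes Gm31371 and 4930467E23Rik each held between 2 and 5 regions of a mark.

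Summed over the 76 H3K9me2 regions of the defensin array, the level was 623 RPM in KO library 1, 625 in KO library 2, 398 in WT library 1 and 772 in WT library 2. The KO libraries lay between the WT libraries. The genotype means were 624 ± 1.05 and 585 ± 264 RPM (SD, n = 2 each), and the exact two-sided permutation test gave p = 1.0. For the 110 H3K9me3 regions the sums were 1255 and 1186 RPM in KO and 676 and 1215 in WT. KO was 1.8 times WT library 1 and 1.0 times WT library 2, with means of 1220 ± 49.1 and 946 ± 381 RPM (SD, n = 2 each, exact permutation p = 0.667). Under TMM the KO to WT ratios were 0.689 and 0.648, without overlap. They were 0.887 and 0.856 against WT library 1, beside 1.08 and 0.791 over all regions, and 0.564 and 0.522 against WT library 2, beside 0.948 and 0.766. With 2 libraries against 2 this test cannot give a p below 0.333. The excess of WT library 2 over WT library 1 was spread over the interval: its RPM was over 2 times that of WT library 1 in 46 of 72 regions there for H3K9me2, and in 56 of 90 for H3K9me3. Per library total, the summed H3K9me3 of WT library 2 lay between the KO libraries, with WT library 1 below them. Its summed H3K9me2 lay above both. The regions along Gm26804 gave 1376 reads in WT library 2 for H3K9me2, against 760, 678 and 657 in KO libraries 1 and 2 and WT library 1. For H3K9me3 they gave 1615 reads against 874, 898 and 505. These reads are not scaled. WT library 1 was the largest library of both marks (8421762 and 5810913 reads), so per library total it lay further below the KO libraries.

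Next to this excess over WT library 1, WT library 2 had losses in the same array. It had 0 reads in 4 H3K9me2 and 4 H3K9me3 defensin regions where the other 3 libraries together had at least 30, a state met in 1.06% and 1.49% of all regions. The largest was the H3K9me3 region at chr8:20946923-20948041, 2.21 kb from the gene AY761185 and printed in part above. It had 311 reads in KO library 1, 314 in KO library 2, 285 in WT library 1 and 0 in WT library 2. WT library 1 was thus at least 93.1-fold higher than WT library 2 against a floor of 3 reads in that library. The overlapping H3K9me2 region had 120, 131, 148 and 0 reads, and a second H3K9me2 region 37.5 kb from Gm21119 had 130, 121, 136 and 0. All lay between 1678 and 2143 kb from the start of the stretch, around the distal end of the interval. The 4 H3K9me2 regions consisted of words with a median of 70 to 158.5 copies in the reference, against a median of 6.25 over the defensin H3K9me2 regions. For the 4 H3K9me3 regions the range was 3 to 105, against a median of 6.0.

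**Figure D2:**
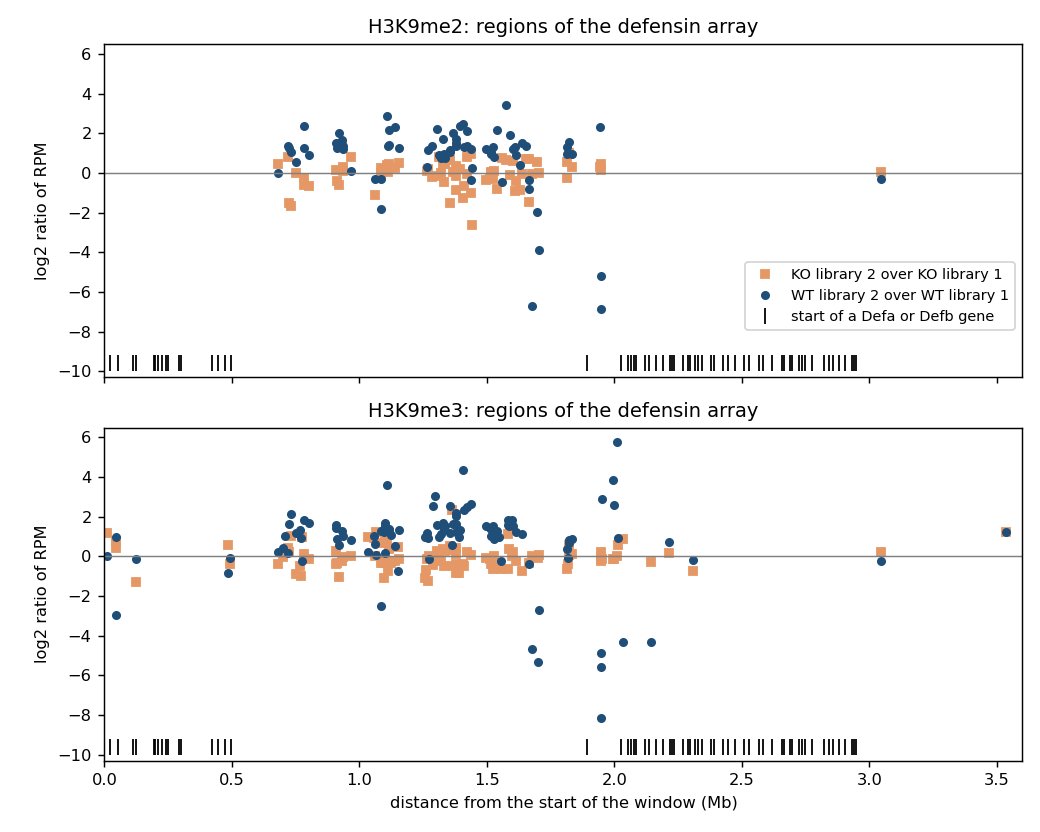
Each point is a region of the defensin array, placed by its distance from the start of the stretch in Mb, and its height is the log2 ratio of RPM between the 2 libraries of 1 genotype. Ticks at the bottom are starts of Defa and Defb genes. WT ratios lie mostly above 0 between the tick groups, with medians of 1.21 (H3K9me2) and 1.13 (H3K9me3) over the array, and drop lowest at the regions with 0 reads in WT library 2, 1678 to 2143 kb from the start, while KO ratios stay around 0.

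In the D5Ertd577e array WT library 2 was below 0.5 times WT library 1 in 21 of 25 H3K9me3 regions and above 2 times in 1. Of its 25 H3K9me3 regions, 17 had 0 reads in WT library 2 and 3 more had 1 or 2. Those 20 regions held 435 reads in KO library 1, 492 in KO library 2, 480 in WT library 1 and 5 in WT library 2. The other 5 regions held 103, 136, 110 and 96 reads, or 24.5, 29.4, 18.9 and 16.9 RPM. These 5 are those with over 2 reads in WT library 2, and 1 of them, near E330014E10Rik, was over 2 times higher there than in WT library 1. Both H3K9me2 regions of the array had 0 reads in WT library 2 as well. The one in an intron of AA792892 (chr5:94347393-94347694) had 32, 25, 16 and 0 reads, and the one 6.74 kb from Gm32072 had 9, 22, 6 and 0. H3K9me3 at AA792892 itself gave 63, 94, 64 and 0 reads over 2 regions, and at Gm3259 63, 60, 67 and 2 over 3 regions. The H3K9me3 sums over all 25 regions were 128 and 136 RPM in KO and 102 in WT library 1, against 17.7 in WT library 2. KO was 2.21 times the WT mean, 1.3 times WT library 1 and 7.44 times WT library 2. Under TMM the KO mean lay between the WT libraries, at 0.615 times WT library 1 and 3.86 times WT library 2. No region of the array passed the test of genotype (edgeR quasi-likelihood, lowest adjusted p = 0.626 for H3K9me3 and 0.643 for H3K9me2).

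**Figure D3:**
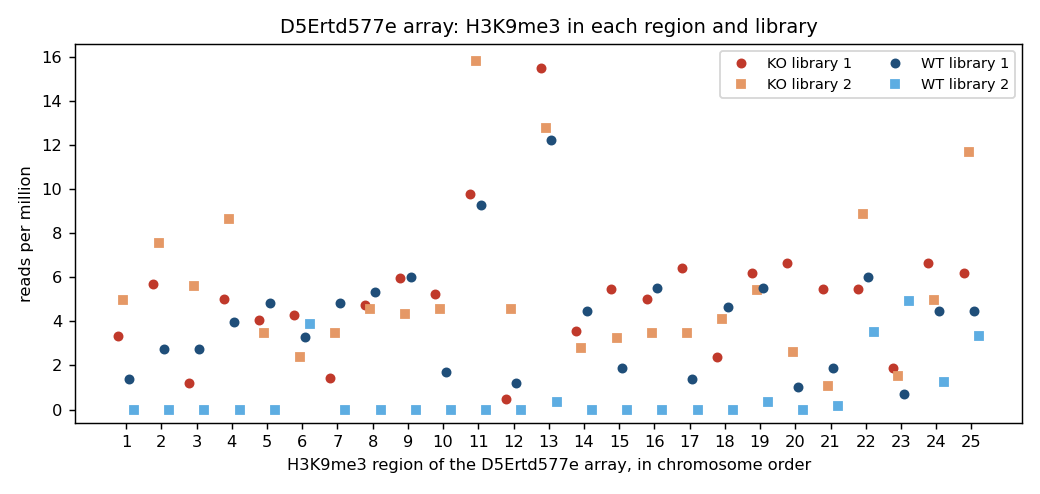
RPM of H3K9me3 in each of the 25 regions of the D5Ertd577e array in chromosome order, 1 point for each library. WT library 2 is at or near 0 in 20 of them and among the other libraries in the last 4 and in the sixth.

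In the proximal Speer stretch summed H3K9me3 was higher in KO per library total. Its 42 regions summed to 293 and 303 RPM in KO and to 148 and 200 in WT, so both KO libraries exceeded both WT libraries (1.71-fold over the means, n = 2 each, exact permutation p = 0.333). Under TMM the ratio of the sums was 0.854, again without overlap and beside 0.778 for all regions. The median region lay at 0.03 on the log2 scale, or -0.02 relative to all regions. Of the 42 regions 23 were higher in KO under TMM. Outside the arrays this held for 58.1% of regions with at least 50% unique words and 41.4% of the others. Of the regions, 3 lay along Speer4cos, the antisense gene of Speer4c, the only Speer symbol overlapped out of 4. A further 9 lay in Pclo, which encodes a protein of the presynaptic zone, with 219, 220, 114 and 109 reads. The 8 H3K9me2 regions summed to 34.9 and 33.9 RPM in KO and 22.4 and 38.3 in WT, which overlap, and KO was 0.729 times WT under TMM, without overlap. In the distal stretch the 5 H3K9me3 regions gave 31.2 and 31.6 RPM in KO and 12.9 and 10.5 in WT, a KO to WT ratio of 2.68, and of 1.32 under TMM, without overlap on either scale. Its highest was in an exon of Gm5067, with 46 and 44 reads in the KO libraries, 16 in WT library 1 and 22 in WT library 2. The single H3K9me2 region had 28, 16, 23 and 2 reads in the same order, and Speer4a, the Speer gene of that stretch, was not overlapped.

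In the Skint array H3K9me3 regions overlapped 7 of 10 Skint genes and lay within 5 kb of 9, Skint7 being the exception. Skint6, 482 kb long, held 8 of the 30, with 142, 150, 135 and 125 reads in KO libraries 1 and 2 and WT libraries 1 and 2. Skint3, Skint4 and Skint10 held 2 each. The sums were 111 and 135 RPM in KO and 78.5 and 81.6 in WT, 1.53-fold higher in KO per library total, with no overlap between the groups, and 0.758 times WT under TMM, again without overlap. H3K9me2 was sparse: its 3 regions gave 6.7 and 12 RPM in KO and 2.85 and 6.0 in WT, and 2 of them lay in Skint6 introns. KO was 2.11 times WT per library total and 1.36 times under TMM, where the libraries overlapped. In the Pramel array none of the 13 genes with a Pramel, Pramef or Oog symbol was overlapped by a region or within 5 kb of one. Of the 49 other genes there, 4 lay within 5 kb of an H3K9me3 region and 0 were overlapped. Family membership beyond the symbol was not examined. No H3K9me2 region was listed. The 8 H3K9me3 regions, all intergenic, summed to 31.9 and 47.2 RPM in KO and 19.1 and 20.0 in WT, a ratio of 2.02. Under TMM the ratio was 0.995 and the libraries overlapped. The highest, 11.0 kb from Gm13088, had 46, 22, 17 and 28 reads, so the libraries of the genotypes overlapped there. In both arrays the Poisson intervals of the summed H3K9me3 overlapped between the WT libraries.

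In the Ear stretch the regions of both marks also missed the named genes, with 0 of 5 Ear and Ang genes overlapped or within 5 kb. The 32 H3K9me3 regions summed to 235 and 209 RPM in KO and 100.0 and 99.7 in WT, 2.22-fold higher in KO, and the 6 H3K9me2 regions to 37.5 and 27.7 in KO and 18.9 and 21.4 in WT, 1.62-fold higher. Under TMM the ratios were 1.10 and 1.02 and the libraries overlapped. The highest H3K9me3 region (chr14:43531118-43532004), 11.6 kb from Gm5799, had 108 and 102 reads in KO and 31 in each WT library. The highest H3K9me2 region, 8.31 kb from Gm21162, had 56, 42, 70 and 56 reads, with log2 fold changes of 0.08 per library total and -0.59 under TMM, neither of which passed (edgeR adjusted p = 0.948 and 0.772). At the H3K9me2 region overlapping the one near Gm5799 the reads were 44 and 47 in KO and 25 and 24 in WT.

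The Sp100 stretch held 34.0 H3K9me3 regions per Mb, the most of the 8 stretches, and 13.0 H3K9me2 regions per Mb, second to the 21.1 of the defensin array. Regions of both marks overlapped Sp110 and Sp140 but not Sp100, and 16 H3K9me3 and 7 H3K9me2 regions lay in the long gene C130026I21Rik. Summed H3K9me2 was 116 and 134 RPM in KO and 61.7 and 70.0 in WT, 1.90-fold higher in KO. Summed H3K9me3 was 502 and 476 RPM in KO and 318 and 302 in WT, 1.58-fold higher. Per library total KO lay above WT in both marks, with p = 0.333 in the exact permutation test of each. Under TMM the ratios were 1.19 for H3K9me2 and 0.780 for H3K9me3, both without overlap, beside 1.01 and 0.778 for the sums over all regions of the marks. The median Sp100 region lay at 0.30 and -0.34 on the log2 scale, beside 0.12 and 0.05 for all regions. Per library total, both KO libraries exceeded both WT libraries in 12 of 13 H3K9me2 and 28 of 34 H3K9me3 regions (45.5% and 57.6% of all regions). Under TMM they did so in 8 of 13 and 1 of 34 (20.0% and 17.3% of all), and lay below in 1 of 13 and 15 of 34 (16.7% and 19.1% of all). At the Sp140 intron printed above the H3K9me2 RPM were 14.1 and 12.7 in KO and 9.38 and 6.16 in WT. At an Sp110 exon (chr1:85598395-85598719) they were 10.1 and 13.5 in KO and 4.87 and 3.54 in WT.

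**Figure D4:**
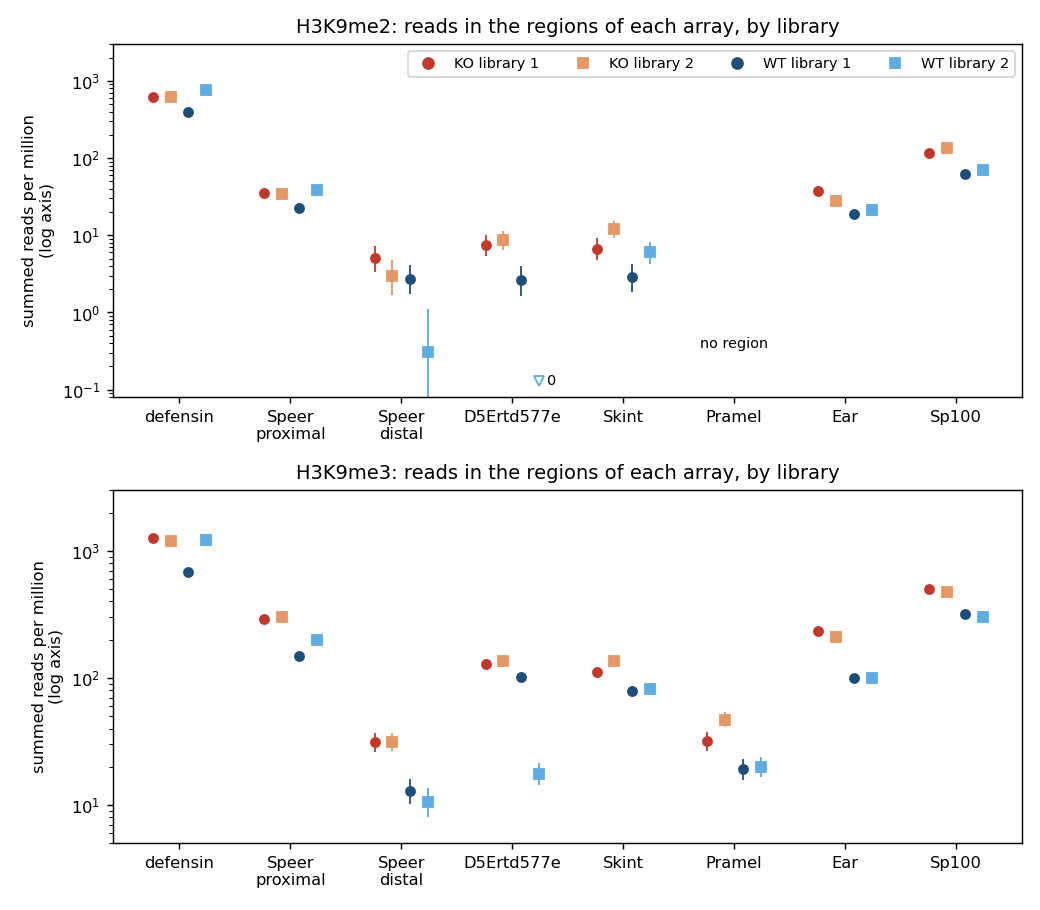
Summed RPM of the regions of each array on a log axis, 1 point for each library, with exact Poisson 95% intervals that cover counting error only, and an open triangle marks a sum of 0. Per library total, KO points lie above both WT points for H3K9me3 in every array but the defensin one, and WT library 2 drops to 17.7 RPM (H3K9me3) and 0 (H3K9me2) in the D5Ertd577e array.

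The test of genotype called few array regions. With edgeR's quasi-likelihood test under TMM scaling (Benjamini-Hochberg adjusted p below 0.05 over all regions of the mark), 1 of 109 H3K9me2 regions (1.92% of all regions were called) and 6 of 286 H3K9me3 regions (0.999% of all) passed, all in the defensin array. Each was lower in KO (1.71% and 0.971% of all regions were called lower), and 0 were higher (0.202% and 0.0276% of all). At an unadjusted p below 0.05 these counts were 17 of 109 and 45 of 286 (9.33% and 9.14% of all). With library totals alone, 4 H3K9me2 and 5 H3K9me3 array regions passed (5.75% and 0.889% of all). Each was higher in KO (5.5% and 0.785% of all were called higher), and 0 were lower (0.252% and 0.103% of all).

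The one place called in both marks was in an intron of Atp7b, which encodes a copper transporter and stands at the distal edge of the defensin stretch. H3K9me2 had 154, 156, 368 and 228 reads in KO libraries 1 and 2 and WT libraries 1 and 2, or 27.9, 28.8, 43.7 and 35.1 RPM. H3K9me3 had 118, 152, 326 and 272 reads, or 28.1, 32.9, 56.1 and 47.8 RPM. The WT libraries exceeded the KO libraries in both marks, without overlap. The log2 fold changes under TMM were -1.17 ± 0.25 (SE) for H3K9me2 (edgeR adjusted p = 0.00162) and -1.79 ± 0.39 for H3K9me3 (edgeR adjusted p = 0.00158). Per library total they were -0.48 and -0.77 and did not pass (edgeR adjusted p = 0.348 and 0.197). It stood alone: its nearest H3K9me3 neighbours lay in an exon of the pseudogene Gm15300 at chr8:21308962-21309229, with 29, 19, 6 and 5 reads, and in an intron of Slc20a2, which encodes a phosphate transporter, at chr8:22534017-22534338, with 8, 22, 13 and 31.

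The other 5 H3K9me3 calls rested on WT library 2. The region 25.1 kb from Defa21 (chr8:21000182-21000421) had 8 and 8 reads in KO, 12 in WT library 1 and 75 in WT library 2, and a log2 fold change of -3.02 ± 0.63 (SE, edgeR adjusted p = 0.000588). A neighbour 29.0 kb from Defa21 had 10, 10, 4 and 71 reads. The region 5.71 kb from AY761185, which had the largest negative log2 fold change at -3.38, had 4, 4, 6 and 51. A region in an intron shared by 2610005L07Rik and Gm26804 had 13, 11, 3 and 79 reads, and one in an intron of 6820431F20Rik had 22, 18, 15 and 91. In all 5, WT library 2 had the most reads by far. Without it the log2 fold changes were -1.23, 0.65, -1.22, 1.32 and -0.24 in the order given, and none passed (edgeR adjusted p = 1.0). Without WT library 2 only the Atp7b region was called in either mark. Without WT library 1 the calls were 25 of 109 for H3K9me2 and 53 of 286 for H3K9me3 (4.89% and 3.1% of all regions in the same fits). In such fits 1 library stands for its genotype and is assumed to vary like the others.

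The calls made per library total were of 2 kinds. The 3 defensin H3K9me2 regions, and the H3K9me3 regions near AY761185 and Gm21119, were those with 0 to 5 reads in WT library 2. The other 4 separated the genotypes in both WT libraries. They were the H3K9me2 region at the Sp110 exon (log2 fold change 1.48 ± 0.49 SE, edgeR adjusted p = 0.0446), both H3K9me3 regions near Gm5799 (2.14 ± 0.47, edgeR adjusted p = 0.00348, and 2.29 ± 0.59, edgeR adjusted p = 0.0232) and an H3K9me3 region 61.6 kb from Pclo. The Pclo flank had 40 and 30 reads in KO and 7 in each WT library, a log2 fold change of 2.69 ± 0.68 (edgeR adjusted p = 0.0175). Under TMM these 4 had log2 fold changes of 0.78, 1.14, 1.29 and 1.70, and none passed. The largest positive TMM values among regions with at least 10 reads on average were 1.63 for H3K9me2, at a defensin region 63.6 kb from Gm21119 with 33, 32, 18 and 0 reads, and 2.09 for H3K9me3, at a Gm32072 exon with 28, 12, 6 and 0 reads. Neither passed (edgeR adjusted p = 0.534 and 0.626).

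Of the 109 H3K9me2 regions, 84 (77.1%) shared at least 1 base with an H3K9me3 region, as did 40.1% of all H3K9me2 regions, and 83 of the 286 H3K9me3 regions (29.0%) overlapped H3K9me2, as did 5.43% of all H3K9me3 regions. Among regions with under 50% unique words outside the arrays, 56.0% of H3K9me2 regions overlapped H3K9me3, and of the 8 array H3K9me2 regions with at least 50% unique words 3 did. All 13 Sp100 and 60 of 76 defensin H3K9me2 regions were shared, and neither D5Ertd577e region was. Over the 82 places where 1 region of each mark paired, the log2 ratio of WT library 2 to WT library 1 was alike in both marks (Pearson's r = 0.88, Spearman's rho = 0.73 across regions). Of these places 58 were in the defensin array (r = 0.92, rho = 0.61) and 13 in the Sp100 stretch, where the ratio had the same sign in both marks in 7 (r = 0.50, rho = 0.18). The ratio of the KO libraries was not (r = -0.09, rho = 0.09). Outside the arrays the values over 693 pairs were r = 0.67 and -0.04. Regions are not independent replicates, and the points of an array share their libraries and repeated words, so no p is given. Genotype effects that differ between the marks were tested by an interaction term over all 775 pairs. Without a term for the library, 0 pairs passed, and 0 of the 82 array pairs had an unadjusted p below 0.05 (6.45% of all pairs did, lowest edgeR adjusted p in the arrays 0.663). With a term for each library named alike in both marks, added after the data were seen, 4.39% of all pairs passed but 0 array pairs (lowest edgeR adjusted p 0.121). At an unadjusted p below 0.05 there were 4 of 82 array pairs (18.6% of all pairs), 3 of them in the Sp100 stretch, and in each the KO to WT ratio was lower for H3K9me3. The labels do not say whether libraries named alike come from 1 culture.

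**Figure D5:**
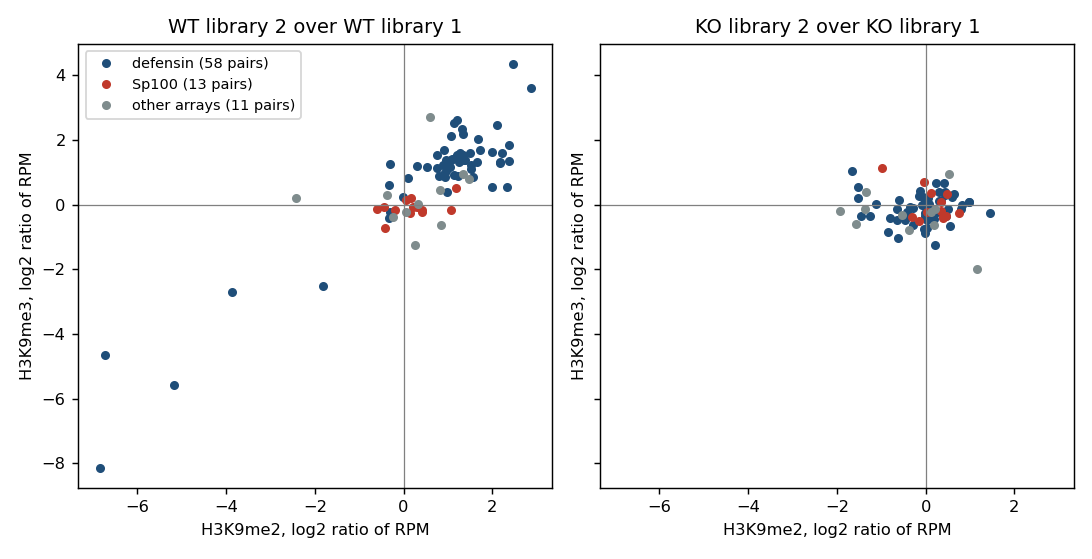
Each point is 1 of the 82 places where an H3K9me2 and an H3K9me3 region paired, with the log2 RPM ratio of 2 libraries of 1 genotype for H3K9me2 on the x axis and for H3K9me3 on the y axis. WT ratios follow the diagonal (r = 0.88), with the defensin regions at both ends, and KO ratios form a cloud around 0 (r = -0.09).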

How the data were processed

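Reads of both marks were mapped to mm10 by the authors with BWA 0.7.12, and peaks came from MACS2 2.1.0. Their notes also name DiffBind. For each mark, the authors deposited raw read counts per region and library, with RPM values beside them. Each deposited RPM equals the count plus 1 over 1 total per library, which gave the totals. Whether these totals hold spike-in reads is not stated. The authors' columns of ratio, fold change, p-value and q-value were not used. Repeat rows (62 and 314) were removed. The 2 KO and 2 WT libraries of a mark, grouped by title, were compared over all its regions with edgeR 4.0.16 (quasi-likelihood, library totals times TMM factors, no filter, adjusted p below 0.05). The test was also run on simulated data, where it missed nearly all of the smallest changes. A region that did not pass is therefore not shown to be unchanged. DESeq2 1.42.0 and other settings were alternatives. Scaled counts were compared with a pseudocount of 1. Replicate p-values measure the spread between 2 cultures. Words of 31 bases were counted over 65 sequences of GRCm38.p6, whose chromosomes have mm10 coordinates, and genes came from GENCODE M21, without regard to strand. Named regions were the highest of each array and mark by mean RPM, every call, and the largest change of each sign with at least 10 counts on average. The sequence of the Atp7b region is not reported here. Regions named for reads absent in 1 library, for calls per library total or as neighbours were chosen after their values were seen. Members, lists and tests were chosen with earlier results of these data known.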

Additional observations from a re-analysis of the deposited data

Results flagged for a closer look

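Summed over the Sp100 stretch with TMM scaling, KO was 1.19 times WT for H3K9me2 and 0.78 times WT for H3K9me3, with no overlap between the genotypes in either mark. The opposite directions drew attention. Over all regions the ratios of the sums were 1.01 and 0.778. The median region of the stretch lay at 0.18 for H3K9me2 and -0.39 for H3K9me3 relative to the median of all regions, and at 0.02 and -0.56 without WT library 2. The difference between the sums was not tested. In the 13 pairs of regions of this stretch the interaction of mark and genotype had an unadjusted p below 0.05 in 0 without a library term and in 3 with one, and none passed after adjustment (edgeR adjusted p of the 3 from 0.121 to 0.152). Per library total the ratios were 1.9 and 1.58, beside 1.58 and 1.57 over all regions, and the median region lay at 0.19 and -0.35 relative to all regions.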

How the results depend on the processing

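Library totals gave 4 H3K9me2 and 5 H3K9me3 calls, each higher in KO, in place of 1 and 6 lower. For H3K9me3, counts in regions as library size left 1 call, the Defa21 flank, and DESeq2 left 1, the Atp7b region. Of all H3K9me3 regions, 0.4% and 0.482% were called in these fits. With counts in regions the Atp7b H3K9me3 region did not pass (log2 fold change -1.43, edgeR adjusted p = 0.05004). The labels state no pairing, and same-numbered KO and WT libraries did not deviate together (r = 0.03 and 0.0042 over all regions of H3K9me2 and H3K9me3). With a replicate block the calls were 4 (3 higher) for H3K9me2 and 3 (1 higher) for H3K9me3, where 1.87% and 0.572% of all regions were called. Leaving out 1 library gave 0 to 25 and 0 to 53 calls, with none when a KO library was left out. The share of all regions called ran from 0% to 4.89% and from 0.0207% to 3.1% in these fits, in which a lone library is assumed to vary like the others. The median difference of array regions was -0.42 for H3K9me2 and -0.31 for H3K9me3. It became 0.16 and 0.68 with library totals, 0.149 and 0.0616 over regions with at least 50% of words unique, and 0.0430 for H3K9me3 with counts in regions. With 2 or more summits it was -0.43 for H3K9me3. Leave-one-out medians ran from -0.72 to 0.0558 for H3K9me2, the latter without WT library 2, and from -0.34 to -0.13 for H3K9me3. Without WT library 2 the log2 fold changes of the 2610005L07Rik and upstream Defa21 regions turned to 1.32 and 0.65, with lowest values of -3.29 and -3.40 without WT library 1. With regions of at least 50% unique words alone, 3 of 8 H3K9me2 regions overlapped H3K9me3. What lies behind these shifts was not tested. Under the other alternatives run (FDR 0.1, any overlap with a stretch, regions with 50% unique words for calls, a low count filter, another pseudocount, DESeq2 size factors, repeat rows kept, overlap of 50% of the shorter region), directions held, and sizes stayed within the replicate spread or call counts within 1.5 times. The low count filter left 5 H3K9me3 array calls, where 0.937% of all regions were called. Of the 61 H3K9me3 array regions with at least 50% unique words 4 were called, beside 0.577% of such regions outside the arrays. Medians relative to all regions, added after the data were seen, stayed negative under every scaling and left-out library, from -0.92 to -0.16 and from -0.37 to -0.19, and were -0.03 and -0.08 within regions of at least 50% unique words and -0.44 and -0.15 within the others.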
